A study of Mus musculus with 32 samples.

Results

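The MHC class II presentation genes and their activator Ciita were followed in mouse lung endothelial cells (ECs) given siRNA and inflammatory cytokines. The members were the 10 rows of the deposited gene counts whose symbol was H2-Aa, H2-Ab1, H2-Eb1, H2-DMa, H2-DMb1, H2-DMb2, H2-Oa, H2-Ob, Cd74 or Ciita, out of 54429 symbols in all. The rule read gene symbols alone. The files identify Ciita as ENSMUSG00000022504, Cd74 as ENSMUSG00000024610, H2-Aa as ENSMUSG00000036594, H2-Ab1 as ENSMUSG00000073421, H2-Eb1 as ENSMUSG00000060586, H2-DMa as ENSMUSG00000037649, H2-DMb1 as ENSMUSG00000079547, H2-DMb2 as ENSMUSG00000037548, H2-Oa as ENSMUSG00000024334 and H2-Ob as ENSMUSG00000041538.

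The cells were Veravec, a single line of mouse lung ECs, so every group is a model of that line alone. All cells were transfected with siRNA in 2 rounds. The siRNA was a control (si-control) or was directed at Dnmt1 (si-dnmt), the maintenance DNA methyltransferase. They then received no cytokine, TNFα at 10 ng/mL (TNF), IFNγ at 1000 U/mL (IFN) or both (TNF + IFN) for 16 h, which made 8 groups of 4 libraries, 32 bulk RNA-seq libraries in all. The labels call the libraries of a group biological replicates 1 to 4 and do not say whether they were separate cultures made on separate days, so the p-values below measure the spread between these libraries.

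MHC class II molecules carry peptides from endosomes to the cell surface for CD4+ T cells. The alpha and beta chains assemble with invariant chain, the product of Cd74, and H2-DM later swaps the last piece of invariant chain for a peptide, a step that H2-DO restrains. Class II promoters carry an X box, read by the RFX complex, and a Y box, an inverted CCAAT read by NF-Y, and CIITA binds the proteins on these boxes without touching DNA itself. Professional antigen-presenting cells make CIITA constantly, whereas ECs are known to make it in response to IFNγ.

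The promoters of the members are shown because their boxes are the letters through which CIITA acts. RefSeq windows from 250 bases before to 50 bases after the transcription start (mouse build GRCm38.p6) were found for 7 of the 10 members, in 8 windows. H2-Ab1, Cd74 and Ciita had no entry. Capitals mark AAC, letters within the X box, and GATTGG, the Y box, and each line runs 5′ to 3′ on the strand of its gene. The H2-Aa segment lies at chr17:34287855-34287914 (minus strand), H2-Eb1 at chr17:34305766-34305824 (plus), H2-DMb1 at chr17:34153087-34153146 (plus), H2-DMb2 at chr17:34145116-34145175 (plus), H2-Oa at chr17:34092293-34092352 (plus) and H2-Ob at chr17:34238808-34238864 (plus).
H2-Aa: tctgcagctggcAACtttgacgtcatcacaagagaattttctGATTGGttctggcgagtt
H2-Eb1: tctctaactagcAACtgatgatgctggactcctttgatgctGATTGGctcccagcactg
H2-DMb1: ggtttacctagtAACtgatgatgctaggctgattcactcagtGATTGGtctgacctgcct
H2-DMb2: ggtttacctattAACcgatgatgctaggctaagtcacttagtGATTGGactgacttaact
H2-Oa: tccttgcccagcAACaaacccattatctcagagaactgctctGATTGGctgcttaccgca
H2-Ob: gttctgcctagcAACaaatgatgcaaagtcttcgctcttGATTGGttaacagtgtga

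In these 6 members AAC began 27 to 30 bases before GATTGG. Of all 32851 RefSeq promoter windows, 0.393% held AAC at that spacing before GATTGG on the strand of the gene, and 0.913% held it on either strand. GATTGG alone was in 8.71% of windows on the strand of the gene and in 16.1% on either strand. The spacing and the letters were chosen after the members' sequences had been read, so these shares are a description. H2-DMa had 2 windows, of which 1 held GATTGG, at 199 bases before the start, and neither held AAC at the spacing. The H2-DMb1 and H2-DMb2 segments were near copies of each other, as are the genes, so reads may have been split between them and the values of both are uncertain.

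**Figure D1:**
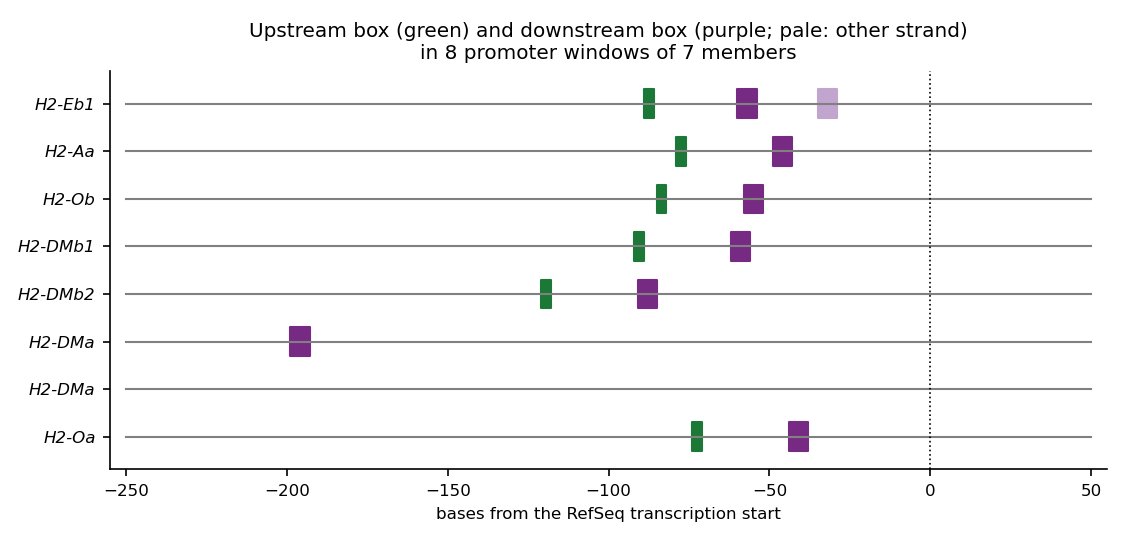
Position of AAC (green) and GATTGG (purple, pale on the other strand) in 8 RefSeq promoter windows of 7 members, with the x axis in bases from the transcription start, where 0 is the start. In 6 members the green mark lies 27 to 30 bases before the purple mark, and in the H2-DMa windows it is missing.

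Levels are CPM, the share of a library's counts scaled to a common total with TMM factors. The 32 libraries held 17362546 to 33500030 counts (median 20859668). Dnmt1 measured 86.5 to 211 CPM in the 16 si-control libraries and 5.11 to 17.3 CPM in the 16 si-dnmt libraries, so every library had the level that its label called for. The defining endothelial markers were abundant (Cdh5 at 847 to 2880.5 CPM), and of 12 leukocyte and antigen-presenting cell markers 10 had at most 9 counts in any library, among them Ptprc with at most 3 and Cd3e with 0. The summed leukocyte markers ran from 1.74 to 134 CPM, mostly Lyz2, and were lowest (1.74 to 8.82 CPM) in si-dnmt + TNF + IFN and highest (44.8 to 134 CPM) in si-control without cytokine. Replicates 1 and 2 stood apart from replicates 3 and 4 in all 8 groups on principal components 2, 3 and 4 of the genes other than the members. Nothing in the labels says what separates these replicate sets, and they bear strongly on the class II genes, so values below are given by replicate and within each set.

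Without cytokine the class II genes were close to silent. Ciita measured 0.0938, 0.212, 0.0439 and 0 CPM in si-control replicates 1 to 4 and 0.0445, 0, 0 and 0.0348 CPM in si-dnmt. H2-Aa, H2-Ab1, H2-DMb2 and H2-Oa had 0 counts in every si-control library, where a count of 0 allows up to 3 counts, or 0.132 to 0.159 CPM. H2-DMa, the alpha chain of H2-DM, was the exception with 0.61, 0.636, 0.0439 and 0.538 CPM in si-control and 0.49, 0.642, 0.546 and 0.695 CPM in si-dnmt. H2-Ob, the beta chain of H2-DO, had 1 count in all 32 libraries together, in si-dnmt + TNF + IFN replicate 4, and did not pass the filter on low counts that the other 9 members passed.

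Silencing Dnmt1 without cytokine moved no member past the test. Differences were tested with edgeR's quasi-likelihood test (two-sided), adjusted over all 15254 genes that passed the filter, and an adjusted p under 0.05 made a call. Of the 9 members tested 0 were called, against 18.5% of all genes, and 0 had an unadjusted p under 0.05. DESeq2 also called 0 and the fit with the replicate number as a block called 0. At these counts a difference between the siRNAs was not detectable for most members.

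IFN raised 8 of the 9 members tested, and Ciita and Cd74 reached at least 71.3 and 133 CPM in every library with IFN alone. Ciita measured 238, 278, 100.1 and 124 CPM in si-control replicates 1 to 4 and 182, 186, 71.3 and 84.6 CPM in si-dnmt with IFN. Cd74 measured 396, 513, 133 and 154 CPM in si-control and 393, 404, 133 and 145 CPM in si-dnmt with IFN. Every IFN library lay far above every library without cytokine for both genes, and in both groups replicates 1 and 2 lay above replicates 3 and 4.

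The ratio of summed counts scaled by depth was 2261 for Ciita in si-control (95% exact counting interval 1097 to 5624) and 5125 for Cd74 (2196 to 15784). Intervals and limits of this kind cover counting error only. The classical chains started from 0, so their change is a lower bound. H2-Aa, the alpha chain of H2-A, was at least 578-fold higher with IFN in si-control, and H2-Ab1, its beta chain, at least 871-fold higher, both taken against 3 counts per library. H2-DMa, with its detectable baseline, was 115-fold higher (83.5 to 163).

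In edgeR's test 8 of the 9 members tested were called higher with IFN in si-control, where 8.56% of all genes were, and 8 of 9 in si-dnmt, where 6.66% were. The members passed the filter through the libraries with IFN, so these counts are a description. H2-Oa, the alpha chain of H2-DO, was the member not called. It had 0.112, 0, 0 and 0 CPM in si-control + IFN and 0.222, 0.042, 0 and 0 CPM in si-dnmt + IFN. Its promoter window held AAC and GATTGG at the spacing given above. In bulk RNA, fewer cells expressing a gene and less RNA per cell cannot be told apart.

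**Figure D2:**
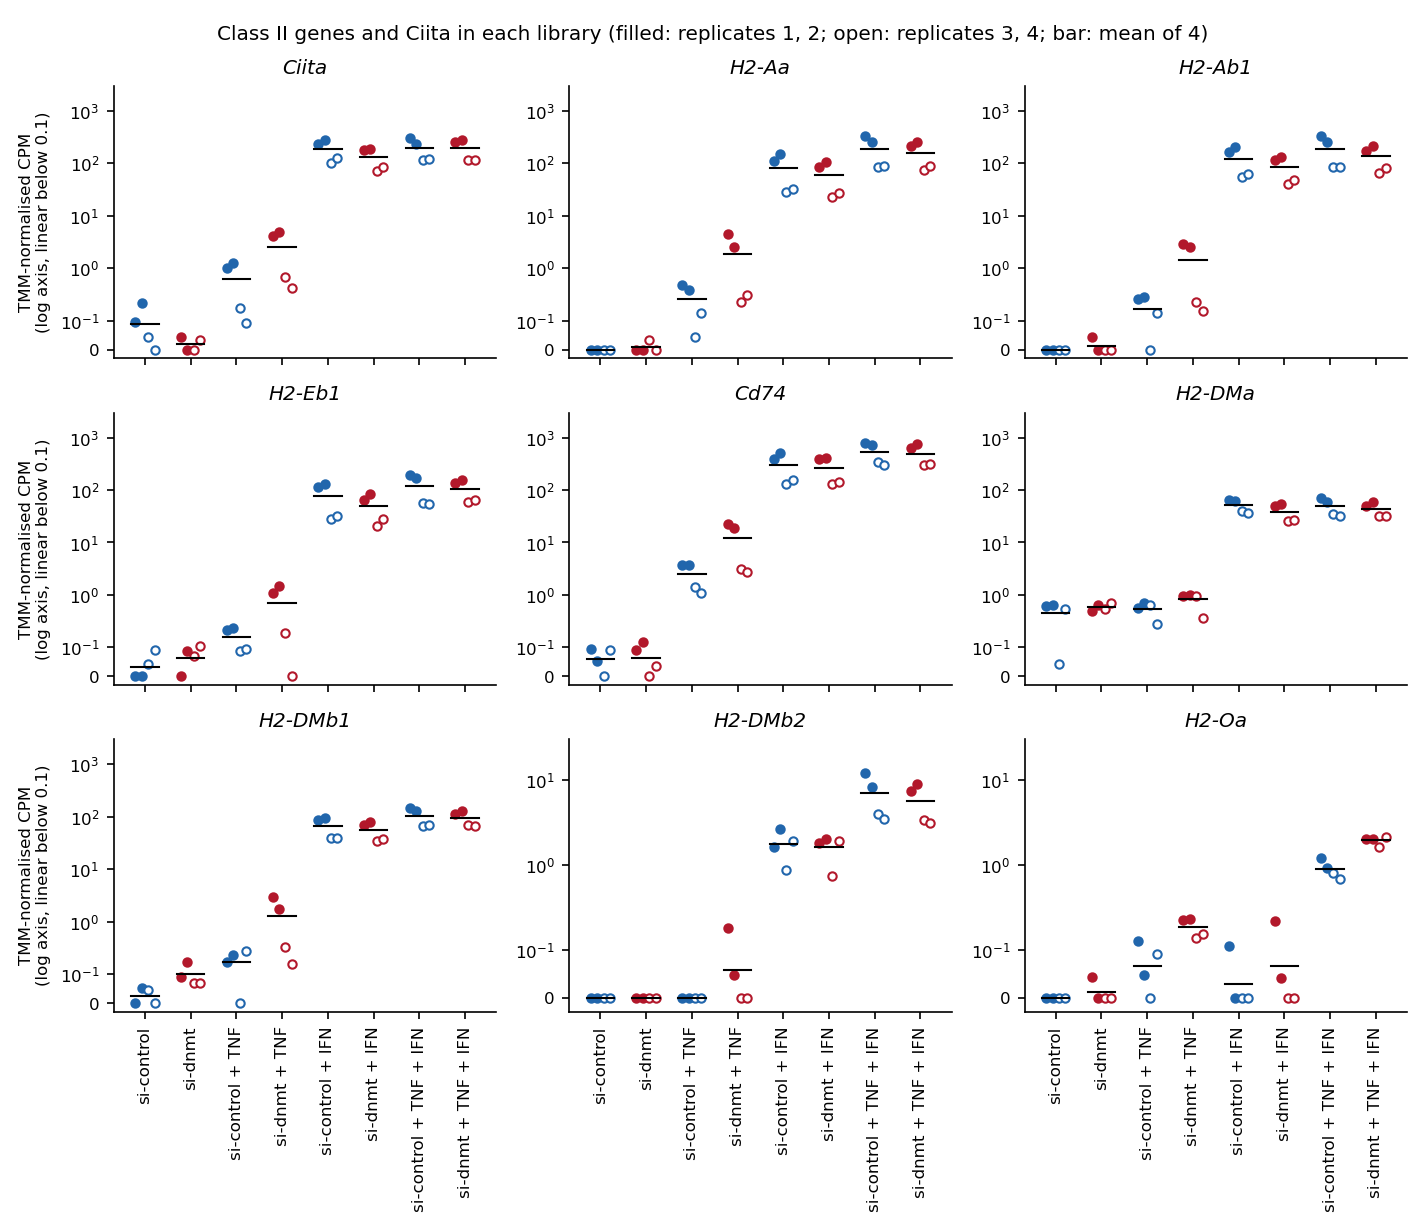
Level of each tested member in every library, by siRNA and cytokine, as TMM-normalised CPM on a log axis that is linear below 0.1 (filled points are replicates 1 and 2, open points replicates 3 and 4, bars the mean of 4). All members but H2-Oa rise with IFN alone, H2-Oa is near 0 with IFN alone and reaches 0.688 to 2.12 CPM with TNF + IFN, and replicates 1 and 2 lie above 3 and 4 for most genes.

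Levels of different genes were compared per kilobase of exon, with the exon union of GENCODE M21 as the length, which may not be the isoforms expressed here. In si-control + IFN, Cd74 led with 178 ± 111 CPM per kb (SD, n = 4). H2-Ab1 (48.0 ± 29.5), H2-Eb1 (39.0 ± 27.5) and H2-DMb1 (38.8 ± 18.1) came next and did not differ beyond their spread. H2-Aa (21.5 ± 16.2), Ciita (19.4 ± 9.04) and H2-DMa (14.9 ± 4.32) followed and also lay within each other's spread. The range of H2-Aa (7.47 to 40.3) overlapped those of H2-DMb1 (23.1 to 57.5) and H2-Eb1 (14.2 to 67.2), so no step separated them. H2-DMb2 stood at 1.02 ± 0.423 CPM per kb, far below H2-DMb1.

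With TNF + IFN in si-control, Cd74 reached 321 ± 149 CPM per kb and H2-DMb2 3.98 ± 2.34, while Ciita stood at 20.4 ± 9.73 and H2-DMa at 14.4 ± 5.51. Across groups, Ciita was ordered by its mean CPM as si-control + TNF + IFN (194 ± 92.8 CPM), si-dnmt + TNF + IFN (194 ± 89.3), si-control + IFN (185 ± 86.2), si-dnmt + IFN (131 ± 61.7), si-dnmt + TNF (2.53 ± 2.30), si-control + TNF (0.63 ± 0.586), si-control (0.0875 ± 0.0915) and si-dnmt (0.0198 ± 0.0232). Neighbours among the first 4 groups did not differ beyond their spread, nor did the last 2, and the TNF groups overlapped in range.

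TNF alone gave a small class II signal, which was higher in si-dnmt. Ciita measured 0.988, 1.27, 0.173 and 0.0928 CPM in si-control replicates 1 to 4 and 4.16, 4.83, 0.692 and 0.411 CPM in si-dnmt with TNF. Cd74 measured 3.78, 3.75, 1.43 and 1.07 CPM in si-control and 23.0, 19.0, 3.14 and 2.67 CPM in si-dnmt with TNF. The groups overlapped when pooled, since si-dnmt replicates 3 and 4 lay below si-control replicates 1 and 2. Within each replicate set every si-dnmt library lay above every si-control library for both genes. The share of all genes with that pattern was not counted. A looser rule, higher in si-dnmt in all 4 same-numbered pairs, held for 25.7% of all genes.

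The ratio of si-dnmt + TNF to si-control + TNF for Ciita was 4.21, 3.82, 4.00 and 4.43 in replicates 1 to 4. In replicates 3 and 4 it rested on 15 against 4 and 8 against 2 counts, so how alike the ratios are cannot be judged. For Cd74 it was 6.09, 5.07, 2.20 and 2.50, larger in replicates 1 and 2. In edgeR's test Ciita was higher in si-dnmt by 2.01 ± 0.72 on the log2 scale (SE, adjusted p = 0.0484) and Cd74 by 2.25 ± 0.63 (adjusted p = 0.0110). With the replicate number as a block the values were 1.95 ± 0.33 (adjusted p = 4.24e-05) and 2.09 ± 0.24 (adjusted p = 1.6e-07).

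The chains that present peptide followed at lower levels. H2-Aa measured 0.473, 0.375, 0.0433 and 0.139 CPM in si-control and 4.39, 2.58, 0.231 and 0.308 CPM in si-dnmt with TNF. H2-Ab1 measured 0.258, 0.281, 0 and 0.139 CPM in si-control and 2.84, 2.58, 0.231 and 0.154 CPM in si-dnmt with TNF. In both genes replicates 1 and 2 of si-dnmt + TNF carried most of the signal. Their edgeR differences missed the threshold without the block (log2 2.85 ± 1.11, adjusted p = 0.0720, and 3.08 ± 1.12, adjusted p = 0.0522) and passed it with the block (2.77 ± 0.43, adjusted p = 1.74e-05, and 3.01 ± 0.45, adjusted p = 1.16e-05).

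H2-DMb1, a beta chain of H2-DM, measured 0.172, 0.234, 0 and 0.279 CPM in si-control and 2.88, 1.74, 0.323 and 0.154 CPM in si-dnmt with TNF. It was higher in si-dnmt by 2.90 ± 0.80 on the log2 scale by edgeR (adjusted p = 0.0107), although in replicate 4 the si-dnmt library was the lower of the pair. H2-Eb1, the beta chain of H2-E, measured 0.215, 0.234, 0.0865 and 0.0928 CPM in si-control and 1.1, 1.5, 0.185 and 0 CPM in si-dnmt with TNF, and was called only with the block (log2 2.08 ± 0.55, adjusted p = 0.00408). H2-DMa stayed near its baseline at 0.559, 0.703, 0.649 and 0.279 CPM in si-control + TNF and 0.961, 0.986, 0.969 and 0.36 CPM in si-dnmt + TNF (log2 0.59 ± 0.49, adjusted p = 0.449).

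Under TNF, 3 of the 9 members tested (Cd74, Ciita and H2-DMb1) were called higher in si-dnmt by edgeR, against 10.4% of all genes. With the block 6 of 9 were called higher, against 17.2% of all genes. In replicates 1 and 2 alone 6 were called, against 13.7% of all genes, and in replicates 3 and 4 alone 2 were called (Cd74 and Ciita), against 17.7%. The members higher in si-dnmt in all 4 same-numbered pairs numbered 6 (H2-Aa, H2-Ab1, H2-DMa, H2-Oa, Cd74 and Ciita), against 25.7% of all genes. In replicate 4 the pair held 3 against 3 counts for H2-Ab1, 7 against 6 for H2-DMa and 3 against 2 for H2-Oa. Without si-dnmt + TNF replicate 1, 0 of the 3 calls were left. The call on Ciita was also lost without si-dnmt + TNF replicate 2 and without si-control + TNF replicate 1, 3 or 4. With TNF the summed leukocyte markers, mostly Lyz2, were 18.2 to 81.0 CPM in the si-control libraries and 5.35 to 26.1 CPM in the si-dnmt libraries. These ranges overlapped, and the part of the leukocyte markers in the class II values was not tested.

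**Figure D3:**
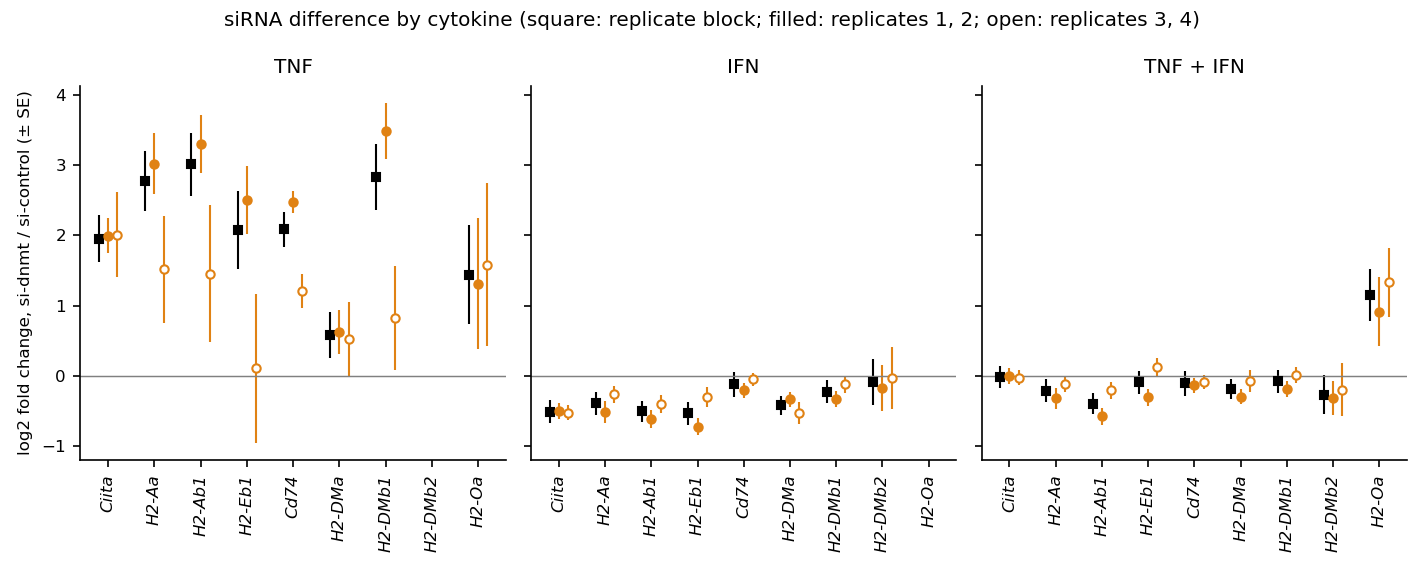
Difference between si-dnmt and si-control as log2 fold change ± SE for each member in the 3 cytokine states (squares are fits with the replicate block over 4 pairs, filled circles replicates 1 and 2 alone, open circles replicates 3 and 4 alone). Under TNF the values for Ciita and Cd74 are all above 0, from 1.21 to 2.48, under IFN the 3 Ciita values are near -0.5, and H2-DMb2 under TNF and H2-Oa under IFN are left out for their low counts.

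Against no cytokine, TNF in si-control raised Cd74 by 5.28 ± 1.24 on the log2 scale by edgeR (adjusted p = 0.00176), a ratio of summed counts of 42.8 (18.1 to 133), and called H2-Oa with 0.129, 0.0469, 0 and 0.0928 CPM (adjusted p = 0.0476). These were 2 of 9 members, against 16.1% of all genes called higher, and the call on H2-Oa was lost when any of 7 of the 8 libraries was left out. With the block 5 members were called, against 22.0% of all genes, with Ciita at log2 2.79 ± 0.68 (adjusted p = 0.00142). In si-dnmt, TNF raised 6 of 9 members (Cd74, Ciita, H2-Aa, H2-Ab1, H2-DMb1 and H2-Oa), against 11.5% of all genes, and 7 with the block, H2-Eb1 added, against 17.8%. The ratio of summed counts for Ciita was 134 in si-dnmt (36.6 to 1112) and 7.64 in si-control (3.47 to 19.9). The counts without cytokine are few and both ratios use them, so their intervals are wide. Summed fibroblast and pericyte markers were 2.30 to 4.97 CPM without cytokine and 15.8 to 56.6 CPM with TNF in the si-control libraries, and 4.36 to 9.18 and 8.74 to 31.5 CPM in the si-dnmt libraries. Summed endothelial markers, in the same order, were 5448 to 8262 and 3696 to 5356 CPM, and 5061 to 7570 and 3087 to 4536 CPM. Of the fibroblast and pericyte markers, Dcn reached 53.8 CPM over all libraries and each other gene at most 3.14 CPM. With the block, 2 of the 4 tested were higher with TNF and 2 lower in si-control. In si-dnmt 1 was higher and 1 lower, where 22.0% and 17.8% of all genes were higher in si-control and si-dnmt. The part of these markers in the class II values was not tested.

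Under IFN the siRNA difference in Ciita had the opposite sign, at a much higher level, and passed the test with the block and not without it. Ciita was 0.767, 0.671, 0.713 and 0.680 of si-control in si-dnmt replicates 1 to 4, with every pair below 1. The values show no pairing by number beyond the replicate sets, so how alike these ratios are cannot be judged. H2-Ab1 was 0.702, 0.625, 0.747 and 0.766 of si-control, H2-Eb1 0.568, 0.651, 0.737 and 0.867, and H2-DMa 0.754, 0.852, 0.664 and 0.727. Cd74 stood closer to 1 with 0.993, 0.786, 1.00 and 0.942.

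Without the block, edgeR called 0 of 9 members lower under IFN, against 9.54% of all genes, and 0 had an unadjusted p under 0.05. DESeq2 also called 0. With the block 4 of 9 were called lower, against 16.6% of all genes. These were Ciita (log2 -0.50 ± 0.16, adjusted p = 0.0148), H2-Ab1 (-0.50 ± 0.15, adjusted p = 0.0118), H2-Eb1 (-0.53 ± 0.16, adjusted p = 0.0122) and H2-DMa (-0.42 ± 0.14, adjusted p = 0.0214). H2-Aa (-0.39 ± 0.17, adjusted p = 0.0731), H2-DMb1 (-0.22 ± 0.16, adjusted p = 0.311) and Cd74 (-0.12 ± 0.17, adjusted p = 0.640) did not pass. In replicates 1 and 2 alone 6 members were called lower, against 12.6% of all genes, and in replicates 3 and 4 alone 3 were (Ciita, H2-Ab1 and H2-DMa), against 20.0%. In all 4 pairs 6 members were lower in si-dnmt (H2-Aa, H2-Ab1, H2-Eb1, H2-DMa, H2-DMb1 and Ciita), against 23.6% of all genes.

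Under TNF + IFN the siRNA difference in Ciita was near 0, and H2-Oa was higher in si-dnmt, a difference that passed the test with the block and not without it. Ciita measured 308, 231, 118 and 119 CPM in si-control and 258, 283, 118 and 116 CPM in si-dnmt with TNF + IFN. H2-Oa measured 1.20, 0.937, 0.801 and 0.688 CPM in si-control and 2.03, 2.04, 1.62 and 2.12 CPM in si-dnmt with TNF + IFN. The H2-Oa groups did not overlap, whereas 11.0% of all genes were higher in si-dnmt without overlap, and the 4 replicates of si-dnmt lay close together.

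Without the block, edgeR called 0 of 9 members in either direction under TNF + IFN, against 17.7% of all genes, with 1 (H2-Oa) at an unadjusted p under 0.05. DESeq2 called the same 1 gene. The edgeR difference of H2-Oa was log2 1.10 ± 0.47 (adjusted p = 0.115), and its ratio of summed counts was 2.13 (1.59 to 2.89). With the block it was 1.15 ± 0.36 (adjusted p = 0.0175), 1 of 9 members called higher against 15.2% of all genes. H2-Ab1 was the 1 member called lower with the block (-0.39 ± 0.15, adjusted p = 0.0485), against 15.6% of all genes. H2-Oa overlaps BC051537 on the opposite strand, and no source used here gives the strand setting of the counting, so reads of the genes cannot be told apart.

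Whether the siRNA difference itself depended on the cytokine was tested as an interaction. For IFN against none and for TNF + IFN against none, 0 of 9 members passed in edgeR, against 0.0459% and 0.531% of all genes, 0 had an unadjusted p under 0.05, and DESeq2 called 0 in both. The libraries without cytokine, near 0 for most members, set the precision of these contrasts. The siRNA difference under TNF was therefore also compared with that under IFN and under TNF + IFN, contrasts added after the values had been seen.

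Without the block 0 of 9 members passed in either added contrast by edgeR, against 0.0328% and 0.0262% of all genes called higher, while 6 and 5 had an unadjusted p under 0.05, and DESeq2 called 0 in both. With the block 6 of 9 members were higher under TNF than under IFN, against 0.387% of all genes, and 5 of 9 were higher under TNF than under TNF + IFN, against 0.203%. For Ciita the differences were log2 2.46 ± 0.37 (adjusted p = 0.00059) against IFN and 1.96 ± 0.37 (adjusted p = 0.0106) against TNF + IFN. For Cd74 they were 2.20 ± 0.30 (adjusted p = 0.000213) and 2.19 ± 0.30 (adjusted p = 0.000317). Both added contrasts use the same TNF libraries.

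With TNF added to IFN, 7 of 9 members in si-control and 8 of 9 in si-dnmt were higher in the fit with the block, H2-DMa in neither, while Ciita in si-control differed by less than its error. H2-Aa measured 113, 153, 28.4 and 32.6 CPM in si-control + IFN and 328, 251, 86.9 and 87.9 CPM in si-control + TNF + IFN. H2-Ab1 measured 166, 208, 55.3 and 64.1 CPM in si-control + IFN and 329, 255, 85.0 and 84.3 CPM in si-control + TNF + IFN. Within each replicate set every library with TNF + IFN lay above every library with IFN for both genes, and across the sets the groups overlapped. The share of all genes with that pattern was not counted, so it is a description.

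With the block, the log2 difference in si-control was 1.32 ± 0.17 for H2-Aa (adjusted p = 5.39e-07), 0.97 ± 0.18 for Cd74 (adjusted p = 5.56e-05), 0.73 ± 0.16 for H2-Eb1 (adjusted p = 0.000541), 0.68 ± 0.16 for H2-DMb1 (adjusted p = 0.00118) and 0.59 ± 0.15 for H2-Ab1 (adjusted p = 0.0027). For Ciita it was 0.08 ± 0.16 (adjusted p = 0.734) and for H2-DMa -0.07 ± 0.14 (adjusted p = 0.709). In si-dnmt the same contrast was 1.49 ± 0.17 for H2-Aa (adjusted p = 8.44e-08), 0.98 ± 0.18 for Cd74 (adjusted p = 5.33e-05) and 0.57 ± 0.16 for Ciita (adjusted p = 0.00562), with H2-DMa at 0.16 ± 0.14 (adjusted p = 0.412). Whether the rise of Ciita differed between the siRNAs was not tested.

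The members with the largest differences were those with the lowest counts. H2-DMb2 measured 1.63, 2.65, 0.873 and 1.94 CPM in si-control + IFN and 12.2, 8.28, 3.94 and 3.44 CPM in si-control + TNF + IFN. H2-Oa went from 0.112, 0, 0 and 0 CPM with IFN to the values with TNF + IFN given above. Both genes passed edgeR's test without the block. H2-Oa passed the filter only through the libraries with TNF + IFN, so its call is a description. H2-DMb2 was higher by log2 1.97 ± 0.50 in si-control (adjusted p = 0.00563) and 1.81 ± 0.50 in si-dnmt (adjusted p = 0.0114). For H2-Oa the ratio of summed counts was 33.9 (9.05 to 286) in si-control and 38.5 (16.1 to 120) in si-dnmt.

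These were the 2 of 9 members called without the block in each siRNA, against 15.6% of all genes called higher in si-control and 12.4% in si-dnmt. With the block 7 of 9 were called in si-control, against 21.9%, and 8 of 9 in si-dnmt, against 18.3%. In si-control 7 were called in replicates 1 and 2 alone (18.4% of all genes) and 7 in replicates 3 and 4 alone (20.7%). In si-dnmt 8 were called in each set, against 17.2% and 15.6% of all genes. Summed leukocyte markers, mostly Lyz2, were 22.4 to 105 CPM in si-control + IFN and 6.04 to 31.0 CPM in si-control + TNF + IFN, ranges that overlapped. Summed fibroblast and pericyte markers, mostly Dcn, were 2.24 to 4.25 CPM in si-control + IFN and 23.8 to 35.8 CPM in si-control + TNF + IFN, and summed endothelial markers were 4678 to 7333 CPM and 3412 to 4691 CPM. The part of these cell markers in the class II values was not tested.

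Against no cytokine, TNF + IFN raised all 9 members tested in si-control, where 23.5% of all genes were called higher, and all 9 in si-dnmt, where 21.3% were. In si-control H2-Aa was at least 1332-fold and H2-Oa at least 6.41-fold higher than the limit of 3 counts per library allowed without cytokine. As with IFN alone, the members passed the filter through these libraries.

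The class II genes were then read per unit of Ciita in the libraries with IFN. In si-control, 4 libraries of TNF + IFN and 4 of IFN, the ratio to Ciita was 2.38-fold higher with TNF + IFN for H2-Aa, 1.85-fold for Cd74 and 1.53-fold for H2-DMb1. In si-dnmt it was 1.89-fold higher for H2-Aa, 1.52-fold for H2-Eb1 and 1.32-fold for Cd74. In each of these 6 comparisons the libraries of the groups did not overlap and the two-sided exact permutation test gave p = 0.0286, the smallest that 4 libraries against 4 can give. Adjusted over the 12 comparisons of this family, which was added after the values had been seen, it was 0.0571. The share of all genes whose ratio to Ciita separated in the same way was not counted. In si-control Ciita itself differed by less than its error, so the ratios there largely repeat the genes' own differences. H2-DMa went the other way, with a ratio to Ciita 1.11-fold lower in si-control (exact permutation p = 0.457) and 1.33-fold lower in si-dnmt (exact permutation p = 0.0857).

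Between the siRNAs no ratio to Ciita passed the test. Of 12 comparisons under IFN and TNF + IFN, 0 passed, the lowest adjusted p was 0.343 and 0 had an unadjusted p under 0.05 by the exact permutation test over 70 assignments. The smallest p this permutation test can give is 0.0286, which after adjustment over 12 comparisons passes only if most of them reach it together. A difference in the ratio of 1 gene alone therefore could not pass. The 3 largest differences in si-dnmt were 1.31-fold higher for Cd74 under IFN (exact permutation p = 0.0571), 1.30-fold lower for H2-Ab1 under TNF + IFN (exact permutation p = 0.143) and 1.22-fold higher for H2-DMb1 under IFN (exact permutation p = 0.0571). Within same-numbered pairs, the ratio of Cd74 to Ciita under IFN in si-dnmt was 1.29, 1.17, 1.40 and 1.38 times that in si-control, and the ratio of H2-DMb1 was also higher in 4 of 4 pairs. The ratio of H2-Ab1 under TNF + IFN was lower in 4 of 4 pairs. An exact permutation within 4 pairs cannot give a p below 0.125, the value for each of these 3.

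**Figure D4:**
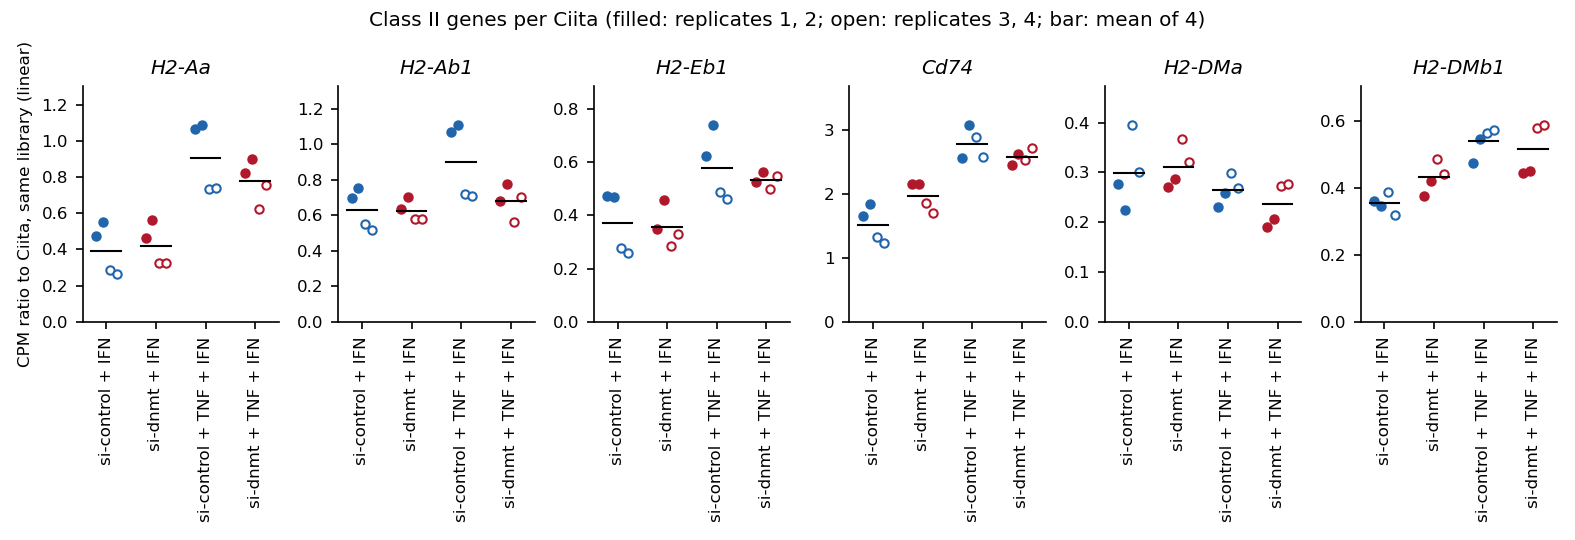
Ratio of each class II gene's CPM to Ciita's CPM on a linear axis in the 4 groups with IFN, 1 point per library (filled for replicates 1 and 2, open for 3 and 4, bars the mean of 4). Ratios of H2-Aa and Cd74 lie higher with TNF + IFN than with IFN under both siRNAs, with no overlap, and those of H2-DMa do not.

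Across all 32 libraries the classical genes tracked Ciita closely. Pearson's r of log2 CPM with Ciita was 0.993 for H2-Ab1, 0.990 for H2-Aa, 0.986 for H2-DMb1, 0.984 for Cd74, 0.983 for H2-Eb1, 0.968 for H2-DMa, 0.946 for H2-DMb2 and 0.569 for H2-Oa. The libraries fall into groups with and without IFN and share their replicate sets, so r is a description and carries no p. Among genes that are not members, the highest r with Ciita were those of Pfkfb3 (0.983), Gbp11 (0.982), Serpina3f (0.981), Lap3 (0.981) and Igtp (0.978). With Cd74 they were Gbp4 (0.988), Gm12185 (0.986), Irf1 (0.986), Serpina3f (0.985) and Tapbpl (0.983).

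**Figure D5:**
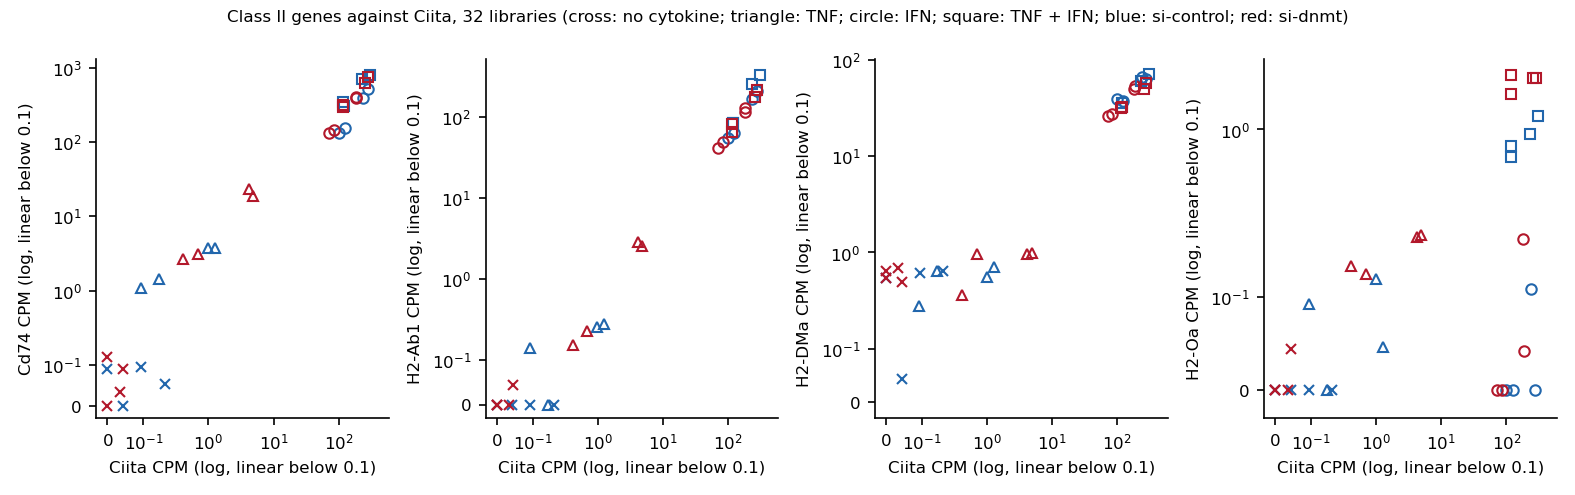
CPM of Cd74, H2-Ab1, H2-DMa and H2-Oa against CPM of Ciita in the 32 libraries, on log axes that are linear below 0.1, with the marker shape for the cytokine and the color for the siRNA. Cd74 and H2-Ab1 rise with Ciita over its whole range, H2-DMa stays flat until Ciita is high, and at the same Ciita the H2-Oa values are near 0 with IFN and 0.688 to 2.12 CPM with TNF + IFN.

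In each of the 4 groups with IFN, replicates 1 and 2 lay above replicates 3 and 4 for Ciita, H2-Aa, H2-Ab1, Cd74 and H2-DMa. The mean of replicates 1 and 2 was 2.27 to 2.36 times that of replicates 3 and 4 for Ciita over the 4 groups with IFN. It was 2.89 to 4.37 times for H2-Aa, 2.68 to 3.45 times for H2-Ab1, 2.25 to 3.17 times for Cd74 and 1.67 to 1.95 times for H2-DMa.

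Among the DNA-binding partners of CIITA on the X and Y boxes, Rfx5 was higher with every cytokine state and Rfxap lower in si-dnmt. Of 7 genes (Rfx5, Rfxap, Rfxank, Nfya, Nfyb, Nfyc and Creb1), 2 were called higher and 1 lower with IFN in si-control by edgeR, and 2 and 0 in si-dnmt (8.56% and 6.66% of all genes were called higher). Rfx5, a subunit of the RFX complex, rose from 15.6 ± 1.67 CPM to 23.4 ± 1.36 CPM with IFN in si-control (log2 0.59 ± 0.10, adjusted p = 9.6e-05), Nfyb of NF-Y by log2 0.52 ± 0.09 (adjusted p = 0.00019). With TNF in si-control 2 were higher and 0 lower, where 16.1% of all genes were higher, and with TNF + IFN against IFN 1 was higher under each siRNA, Rfx5, by 0.82 ± 0.10 in si-control (adjusted p = 4.4e-07) and 0.58 ± 0.10 in si-dnmt (adjusted p = 7.3e-05). Rfxap, another RFX subunit, fell by 0.65 with si-dnmt under TNF (adjusted p = 0.0068), by 0.70 under IFN (adjusted p = 0.0039) and by 0.81 under TNF + IFN (adjusted p = 0.0013). In these siRNA contrasts 3, 3 and 2 of the 7 were lower, against 9.59%, 9.54% and 8.72% of all genes, and 0, 0 and 1 higher. With the block 3, 3 and 4 were lower, against 16.2%, 16.6% and 15.6% of all genes, and 1 was higher in each.

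Of 8 genes on the route from IFNγ to Ciita (Ifngr1, Ifngr2, Jak1, Jak2, Irf1, Irf2, Usf1 and Socs1), 5 were called higher and 1 lower with IFN under each siRNA by edgeR, where 8.56% and 6.66% of all genes were higher. The median log2 difference of the 8 was 0.94 in si-control, against -0.0082 over all genes tested. Irf1, a transcription factor at the Ciita promoter, rose with IFN from 35.8 ± 6.77 to 753 ± 150.4 CPM in si-control (log2 4.40 ± 0.16, adjusted p = 5.8e-18), and Socs1, a feedback inhibitor of the receptor, by log2 4.91 ± 0.30 (adjusted p = 2.3e-13). TNF alone raised 6 in si-control and 4 in si-dnmt, against 16.1% and 11.5% of all genes. With the block it raised 8 and 7, against 22.0% and 17.8% of all genes. Without the block Irf1 rose by 2.01 ± 0.15 (adjusted p = 3.7e-11) and 1.63 ± 0.15 (adjusted p = 2.8e-09) by edgeR. TNF + IFN against IFN raised 4 and 5, against 15.6% and 12.4% of all genes, led by Ifngr1, a receptor chain, at 1.31 ± 0.11 (adjusted p = 8.4e-10) and 1.11 ± 0.11 (adjusted p = 1.9e-08). Between the siRNAs without cytokine 4 of the 8 (Jak2, Irf1, Irf2 and Socs1) were higher in si-dnmt and 0 lower, against 9.58% of all genes called higher. With the block 5 were higher and 1 lower. The share of all genes called with the block without cytokine is not given here. Under TNF the block raised the share called higher from 10.4% to 17.2%. Under TNF 1 was higher (Socs1, 1.12 ± 0.26, adjusted p = 0.0029) and 1 lower (Ifngr1, -0.46 ± 0.11, adjusted p = 0.003) by edgeR, where 10.4% of all genes were higher. Under IFN and under TNF + IFN 0 of the 8 were called. Of all genes, 9.54% were called lower under IFN and 17.7% were called either way under TNF + IFN. With the block Irf1 was lower by edgeR under IFN (-0.23, adjusted p = 0.032) and under TNF + IFN (-0.27, adjusted p = 0.0144), and Socs1 was higher under TNF + IFN (0.60, adjusted p = 0.0223). In these blocked fits 16.6% of all genes were lower under IFN. Under TNF + IFN 15.6% were lower and 15.2% higher.

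Of 7 genes that process antigen or invariant chain (Ctss, Ctsl, Ctsb, Ctsd, Ctsh, Lgmn and Ifi30), Ctss, the protease that cuts invariant chain, was called in the largest number of siRNA contrasts without the block. With TNF its level was 0.290 ± 0.165 CPM in the si-control libraries and 5.56 ± 3.03 CPM in the si-dnmt libraries (SD, n = 4). With IFN the levels in the same order were 2.86 ± 1.05 and 23.2 ± 10.4 CPM. With TNF + IFN they were 5.30 ± 2.80 and 37.7 ± 18.6 CPM. The groups of each state did not overlap, and under TNF + IFN 11.0% of all genes were higher in si-dnmt without overlap. It was higher in si-dnmt by log2 4.23 ± 0.57 under TNF (adjusted p = 4.5e-06), 3.02 ± 0.45 under IFN (adjusted p = 2e-05) and 2.82 ± 0.43 under TNF + IFN (adjusted p = 3.2e-05). Without the block it was the 1 gene of the 7 called between the siRNAs under IFN and under TNF + IFN, where 20.3% and 17.7% of all genes were called, and under TNF Ifi30, a lysosomal thiol reductase, was also called, at 1.06 ± 0.28 (adjusted p = 0.0069). With the block 2 were higher (Ctss and Ifi30) and 2 lower (Ctsd and Ctsh) under IFN, against 34.5% of all genes, and 2 higher (Ctss and Ifi30) and 1 lower (Ctsh) under TNF + IFN, against 30.8%. Under TNF 3 were higher and 1 lower with the block, where 17.2% of all genes were higher. With TNF + IFN against IFN 2 of the 7 were lower and 0 higher under each siRNA, against 13.5% and 11.3% of all genes lower. With the block 3 were lower and 2 higher under each, where 21.9% and 18.3% of all genes were higher. Among the calls without the block were Ctsd at -0.84 ± 0.15 in si-control (adjusted p = 6.9e-05) and Lgmn at -0.88 ± 0.14 in si-dnmt (adjusted p = 3.2e-05).

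Of 3 genes of class II turnover, March1, a ubiquitin ligase that removes class II from the surface, measured 0.889 to 1.56 CPM in si-dnmt + TNF + IFN and at most 0.312 CPM in the libraries of the other groups. In edgeR's test it was higher in si-dnmt under TNF + IFN by log2 2.31 ± 0.55 (adjusted p = 0.0037). March1 passed the filter only through the si-dnmt + TNF + IFN libraries, so this call is a description. March8 was called in no siRNA contrast without the block, though lower in si-dnmt with it without cytokine, under TNF and under TNF + IFN. Cd83 did not pass the filter, with at most 5 counts. Of 3 other genes of the class II locus, the pseudogene H2-Ea-ps had 0 counts in every library without IFN and 5 to 9 counts per library in si-control + IFN (log2 6.04 ± 1.35 by edgeR, adjusted p = 0.0054). H2-Ea-ps passed the filter through libraries with IFN, so this call is a description. H2-Eb2, with at most 18 counts, and Btnl2, with at most 3, did not pass the filter.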

How the data were processed

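Bulk RNA-seq of Veravec ECs was deposited as featureCounts tables, 1 per library and 1 merged by gene symbol. Per the submitters' processing notes, the authors trimmed reads with cutadapt 4.9 and used FastQC 0.12.1, MultiQC 1.27.1, featureCounts and DESeq2. The deposited values are whole counts with no normalization. Aligner, genome build, annotation and strand setting: not given in the sources used here. A member that overlaps another gene (H2-DMa with Brd2, H2-Oa with BC051537 and Ciita with Dexi on the opposite strand, Cd74 with Mir5107 on the same strand, in GENCODE M21) may therefore hold reads of both.

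Counts of 54532 gene identifiers were filtered with filterByExpr (minimum count 10), which left 15254 genes, and scaled by TMM. Gene-wise tests used edgeR 4.0.16 in R 4.3.3 on 8 group means over 32 libraries. A count of 0 was taken to allow 3 counts per library, and ratios against few counts carry 95% exact intervals (SciPy 1.17.1). Ratios to Ciita were compared by exact permutation over libraries. Every library entered each fit. Alternatives were the replicate number as a block, other scaling and filters, fits on fewer groups, DESeq2 1.42.0 and leaving out each library. After the data were seen, the fits within replicate sets, the set as a term, the contrasts between cytokine states, the ratio of TNF + IFN to IFN and the pairs of ratios to Ciita were added. The edgeR code was tested on simulated data.

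Same-numbered libraries deviated together from their group means, with correlations of 0.299 to 0.617 (median 0.441) in 48 of 48 same-numbered library pairs. In 21 of the 48 the library of the same number was the best match in the other group. In the rest the best match was the other library of the same replicate set. This is no more than a random choice within a set would give, so the values show no pairing by number beyond the sets. The labels give the numbers and no further basis for pairing, so blocked values of the members stand beside the others wherever they change a call.

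Named genes are the 10 members, Dnmt1, the 2 largest changes in each pathway list and the 5 genes most correlated with Ciita and with Cd74. The members and lists were chosen with earlier results of these data known. The values of 1 further gene of the pathway lists are not reported here.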

Additional observations from a re-analysis of the deposited data

Results flagged for a closer look

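In 63 groups of 4 libraries with more than 3 counts of a member, 1 library stood far from the other 3 in 3 groups by Dixon's test, where chance alone gives about 1 in 20. H2-DMa was at 0.0439 CPM in si-control replicate 3, against 0.538 to 0.636 CPM in the other replicates. H2-DMa was at 0.360 CPM in si-dnmt + TNF replicate 4, against 0.961 to 0.986 CPM. H2-DMb2 was at 0.736 CPM in si-dnmt + IFN replicate 3, against 1.83 to 2.02 CPM.

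The siRNA difference itself differed between cytokine states for several members in edgeR's fit with the replicate block (adjusted p under 0.05), in contrasts added after the data were seen. Under TNF against under IFN the log2 difference was 2.46 for Ciita, 2.20 for Cd74, 3.16 for H2-Aa, 3.51 for H2-Ab1, 2.61 for H2-Eb1 and 3.05 for H2-DMb1. Under TNF against under TNF + IFN it was 1.96 for Ciita, 2.19 for Cd74, 2.99 for H2-Aa, 3.40 for H2-Ab1 and 2.91 for H2-DMb1. Without the block 0 passed in either contrast.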

How the results depend on the processing

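With the replicate block (and, given the same counts, with the replicate set as a term) members called under TNF between the siRNAs numbered 6 where 3 were called without it, under IFN 4 against 0, under TNF + IFN 2 against 0, for TNF against none in si-control 5 against 2, for TNF + IFN against IFN 7 in si-control and 8 in si-dnmt against 2 each, and in the added contrasts 6 (TNF minus IFN) and 5 (TNF minus TNF + IFN) against 0. In replicates 1 and 2 alone the same contrasts gave 6, 6, 2, 5, 7, 8, 6 and 6, and in replicates 3 and 4 alone, leaving aside those within 1.5 times, 3 (siRNA under IFN), 1 (siRNA under TNF + IFN), 1 (TNF in si-control), 7, 8, 2 and 1. With the compared groups fitted alone the counts were 0 (siRNA under TNF), 1 (siRNA under TNF + IFN), 1 (TNF in si-control) and 1 (TNF in si-dnmt, against 6). DESeq2 gave 5, 1 and 5 for the first 3 of these, and no filter gave 1 for TNF in si-control. Leaving out 1 library gave 0 to 5 for siRNA under TNF, 1 to 2 for TNF in si-control and 6 to 7 in si-dnmt. With the replicate block 0 ratios to Ciita passed in either family, as without it, in a design of 4 pairs that cannot pass. The cause was not tested, beyond the fewer libraries in the smaller fits.

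No difference that changed sign had passed the test. For siRNA under TNF + IFN these were Ciita (0.012 with RLE scaling, 0.067 with library totals, 0.00071 in replicates 1 and 2, 0.0023 with the groups alone, 0.013 by DESeq2), H2-Eb1 (0.13) and H2-DMb1 (0.0148) in replicates 3 and 4. For TNF + IFN against IFN in si-control they were H2-DMa (0.027 in replicates 1 and 2) and Ciita (-0.0045 with library totals), and for siRNA under TNF minus TNF + IFN H2-Eb1 (-0.015 in replicates 3 and 4). Leaving out 1 library gave, for siRNA under IFN, -0.87 to 0.036 for H2-Aa and -0.42 to 0.23 for Cd74. For siRNA under TNF + IFN it gave -0.60 to 0.14 for H2-Aa, -0.47 to 0.14 for H2-Eb1, -0.39 to 0.012 for H2-DMa, -0.29 to 0.12 for H2-DMb1, -0.59 to 0.13 for H2-DMb2, -0.37 to 0.13 for Cd74 and -0.24 to 0.31 for Ciita. For TNF in si-control H2-DMa ran from -0.11 to 0.50, and for TNF + IFN against IFN H2-DMa from -0.25 to 0.13 and Ciita from -0.23 to 0.35 in si-control, and H2-DMa from -0.0479 to 0.32 in si-dnmt. The cause was not tested. Few counts without cytokine and under TNF limit the precision of every difference that uses those libraries.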
